A study of Homo sapiens with 12 samples.

Results

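The 10 genes described here are the actins ACTB, ACTG1, ACTA2, ACTG2 and ACTC1, the actin-binding and motor proteins TAGLN, CNN1, TPM1 and MYL9 of the smooth muscle contractile apparatus, and SRF, the transcription factor that controls many of them. They were chosen by gene name from earlier results of these data over all 4 groups, and they are 10 of the 58735 genes in the deposited table, in which each name matched 1 gene. RNA came from samples labelled as the liver tumour lines Huh7, taken from a hepatocellular carcinoma, and HepG2, taken from a hepatoblastoma. The cells were grown without treatment or with geniposide, a glycoside found in gardenia fruit, and were collected after 48 h, which makes 4 groups of 3 libraries. No genotype change is given for any group, no dose of geniposide is stated in the sources used here, and nothing in the labels tells whether replicates were separate cultures. The p-values below therefore measure the spread between the samples sequenced, which may be technical only.

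Actin is the protein of the thin filaments that give a cell its shape and, with myosin, its pull. ACTB and ACTG1 encode the cytoplasmic actins of nearly every cell, while ACTA2 and ACTG2 encode the smooth muscle actins and ACTC1 the cardiac one. SRF binds a DNA element called the CArG box, and its partners of the MRTF family are held back by free actin monomers, so that actin genes lie both upstream and downstream of this factor. In the liver, ACTA2 and TAGLN are best known as markers of activated stellate cells and vessel walls, and hepatocytes make little of either.

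The promoters of these genes are shown first because the CArG box is the feature through which SRF is known to reach them. RefSeq promoters (build GRCh38.p14, 250 bases before to 50 after a start) were matched by symbol for 7 of the 10 genes, with 11 promoters in all. A CArG box (2 cytosines, 6 bases that are A or T, and 2 guanines, a palindromic pattern searched as letters) was present in a promoter of ACTG1, ACTG2, ACTC1 and SRF. It was present in 454 of all 35116 promoters of that length, or 1.29%. Neither promoter of ACTA2, nor the promoter of CNN1 or TPM1, held an exact match. The second ACTA2 promoter held 2 boxes with a G or C at 1 of the 6 inner positions, a looser pattern found in 6.94% of promoters. The windows below give each box in capitals with 25 bases on either side.
ACTG1, chr17:81512859-81512918, minus strand: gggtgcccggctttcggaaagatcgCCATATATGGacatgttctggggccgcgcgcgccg
ACTG2, chr2:73892873-73892969, plus strand: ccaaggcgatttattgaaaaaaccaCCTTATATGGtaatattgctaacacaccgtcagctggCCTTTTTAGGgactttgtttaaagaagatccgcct
ACTC1, chr15:34795624-34795683, minus strand: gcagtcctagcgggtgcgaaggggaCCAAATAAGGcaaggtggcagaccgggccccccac
SRF, chr6:43171214-43171293, plus strand: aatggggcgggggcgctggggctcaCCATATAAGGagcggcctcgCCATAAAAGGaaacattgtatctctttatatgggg
ACTA2, chr10:88952810-88952919, minus strand: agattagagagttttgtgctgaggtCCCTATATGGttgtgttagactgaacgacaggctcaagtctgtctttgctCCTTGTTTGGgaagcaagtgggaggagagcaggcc
The boxes began 94 bases before the start in ACTG1, 110 and 73 bases before it in ACTG2, 109 bases before it in ACTC1, 30 and 10 bases before it in SRF, and 121 and 71 bases before it in ACTA2. The promoter of ACTC1 held 3 boxes of the looser pattern beside its exact one. The TEAD motif CATTCC occurred in 1 ACTA2 promoter and in 1 of the 3 ACTC1 promoters, against 14.0% of all promoters. TATAAA occurred in the promoters of ACTG2, ACTC1 and SRF that hold the CArG box, against 11.5% of all promoters. Both strands were searched, and a match is a description of these letters only. The deposited table gives 1 value per gene, so the levels below do not separate the start sites of ACTA2, ACTC1 or SRF.

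The actin genes code for almost the same protein, and the amount of sequence they share bears on how well short reads tell them apart. The last 60 coding bases of the principal transcript of each actin (GENCODE 29) are given below, with capitals where a base differs from ACTB.
ACTB: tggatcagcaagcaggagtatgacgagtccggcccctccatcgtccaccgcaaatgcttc
ACTG1: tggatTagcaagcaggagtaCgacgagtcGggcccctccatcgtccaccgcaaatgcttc
ACTA2: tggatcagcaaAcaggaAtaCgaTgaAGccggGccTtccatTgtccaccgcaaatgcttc
ACTG2: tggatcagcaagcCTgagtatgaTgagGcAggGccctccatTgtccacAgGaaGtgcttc
ACTC1: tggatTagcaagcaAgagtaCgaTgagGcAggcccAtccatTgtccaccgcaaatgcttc
In this stretch ACTG1 differed from ACTB at 3 bases, ACTC1 at 8, ACTA2 at 9 and ACTG2 at 10. Over the whole coding sequence ACTB and ACTG1 were 91.3% identical, and their longest run of identical bases was 59. ACTB and ACTA2 were 81.8% identical, with a longest shared run of 32 bases, and among the muscle actins identity ran from 84.7% for ACTA2 and ACTG2 to 85.9% for ACTG2 and ACTC1. How the authors' counting treated reads that fit several actins is not stated in the sources used here, so the split of reads between near-identical copies is uncertain. The table holds 46 genes with names of ACTB or ACTG1 pseudogenes, of the copy ACTBL2 or of the POTE family, whose antisense gene POTEH-AS1 is among them. They summed to 3.69 to 5.92 FPKM per library, and 2 of them reached a group mean of 1 FPKM, ACTG1P20 with at most 2.66 FPKM and ACTG1P10 with at most 1.21 FPKM.

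Libraries held 15056655 to 17211659 fragments, recovered from the deposited values. The third treated Huh7-labelled library stood apart, with a chi-square per degree of freedom of 38.9 and 40 against the other treated libraries, while the other pairs within groups lay between 2.15 and 6.06. The main differences of the Huh7-labelled line are given with and without it, and levels are given per library. None of 10 hepatocyte markers, ALB and APOA1 among them, reached a group mean of 1 FPKM, so the groups are called Huh7-labelled and HepG2-labelled. Of 8 markers of smooth muscle and myofibroblasts, LMOD1 and SMTN passed 1 FPKM, and the summed level of the list was 5.86 to 6.85 FPKM in untreated and 6.54 to 8.72 FPKM in treated Huh7-labelled libraries, and 5.66 to 6 FPKM and 7.3 to 7.73 FPKM in the HepG2-labelled ones. SMTN made up most of it, with 5.21 and 7.26 FPKM in the HepG2-labelled groups, where DES went from 0.255 to 0.0179 FPKM. MYH11, the smooth muscle myosin, had group means of 0.124 to 0.171 FPKM, and KCNMB1 was at 0 in every library. Of 12 fibroblast and stellate cell markers 5 passed 1 FPKM (COL1A1, COL3A1, PDGFRB, DCN and LUM), and their list summed to 72.9 to 74.4 FPKM in untreated and 105 to 108 FPKM in treated HepG2-labelled libraries, against 5.79 to 8.55 FPKM in the Huh7-labelled ones. Its members did not move alike, with LUM at 35.4 and 59.5 FPKM and PDGFRB at 4.33 and 2.09 FPKM in the HepG2-labelled groups. Of 10 skeletal and cardiac muscle markers, TNNI3 and NKX2-5 passed 1 FPKM. Their list summed to 39.3 to 39.7 FPKM in untreated and 23.6 to 30.6 FPKM in treated Huh7-labelled libraries, nearly all of it NKX2-5 (36.4 and 24 FPKM), and to 0.266 to 0.686 FPKM in the HepG2-labelled ones. The part of other cell types in the values below was not tested, and in bulk RNA fewer cells of a type cannot be told apart from less RNA per cell.

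Levels are deposited FPKM (fragments per kilobase of gene length, relative to a library total used by the authors), given per library in replicate order and as mean ± SD over n = 3. That total was 1.09 to 1.17 times the recovered fragments in Huh7-labelled libraries and 0.895 to 0.914 times in HepG2-labelled ones. A larger total lowers FPKM, so ratios of FPKM between lines carry this offset. Differences are log2(FPKM + 1) of treated minus untreated libraries ± SE from limma fitted across 15518 genes with at least 1 FPKM in 3 or more libraries, a scale that understates the change of low genes. A gene is called when its adjusted p over all tested genes is under 0.05. Because these contrasts helped to choose the 10 genes, their calls are a description and carry no p. Of the 10, 7 passed the filter. CNN1 and ACTC1 each reached 1 FPKM in only 2 libraries, ACTG2 in none, and values for these 3 come from the same fit without the filter.

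Among the 7 genes in the filtered fit, 4 were called in the Huh7-labelled libraries (ACTA2 higher, ACTB, ACTG1 and TPM1 lower), where 34.5% of all tested genes were called, 16.4% higher and 18.1% lower. In the HepG2-labelled libraries 5 were called (ACTA2 higher, ACTB, TAGLN, TPM1 and MYL9 lower), where 42.5% of tested genes were called, 21.0% higher and 21.5% lower. Treated and untreated libraries did not overlap for 4 of the 7 in the Huh7-labelled samples and for all 7 in the HepG2-labelled samples. With the 3 genes below the filter these counts were 5 and 9 of the 10. Among all tested genes the shares without overlap were 43.9% and 58.9%. The effects in both lines differed past the threshold for TAGLN and MYL9, 2 of the 7, both lower in the HepG2-labelled line, where 27.8% of all tested genes differed. The 2 lines have separate untreated libraries.

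**Figure D1:**
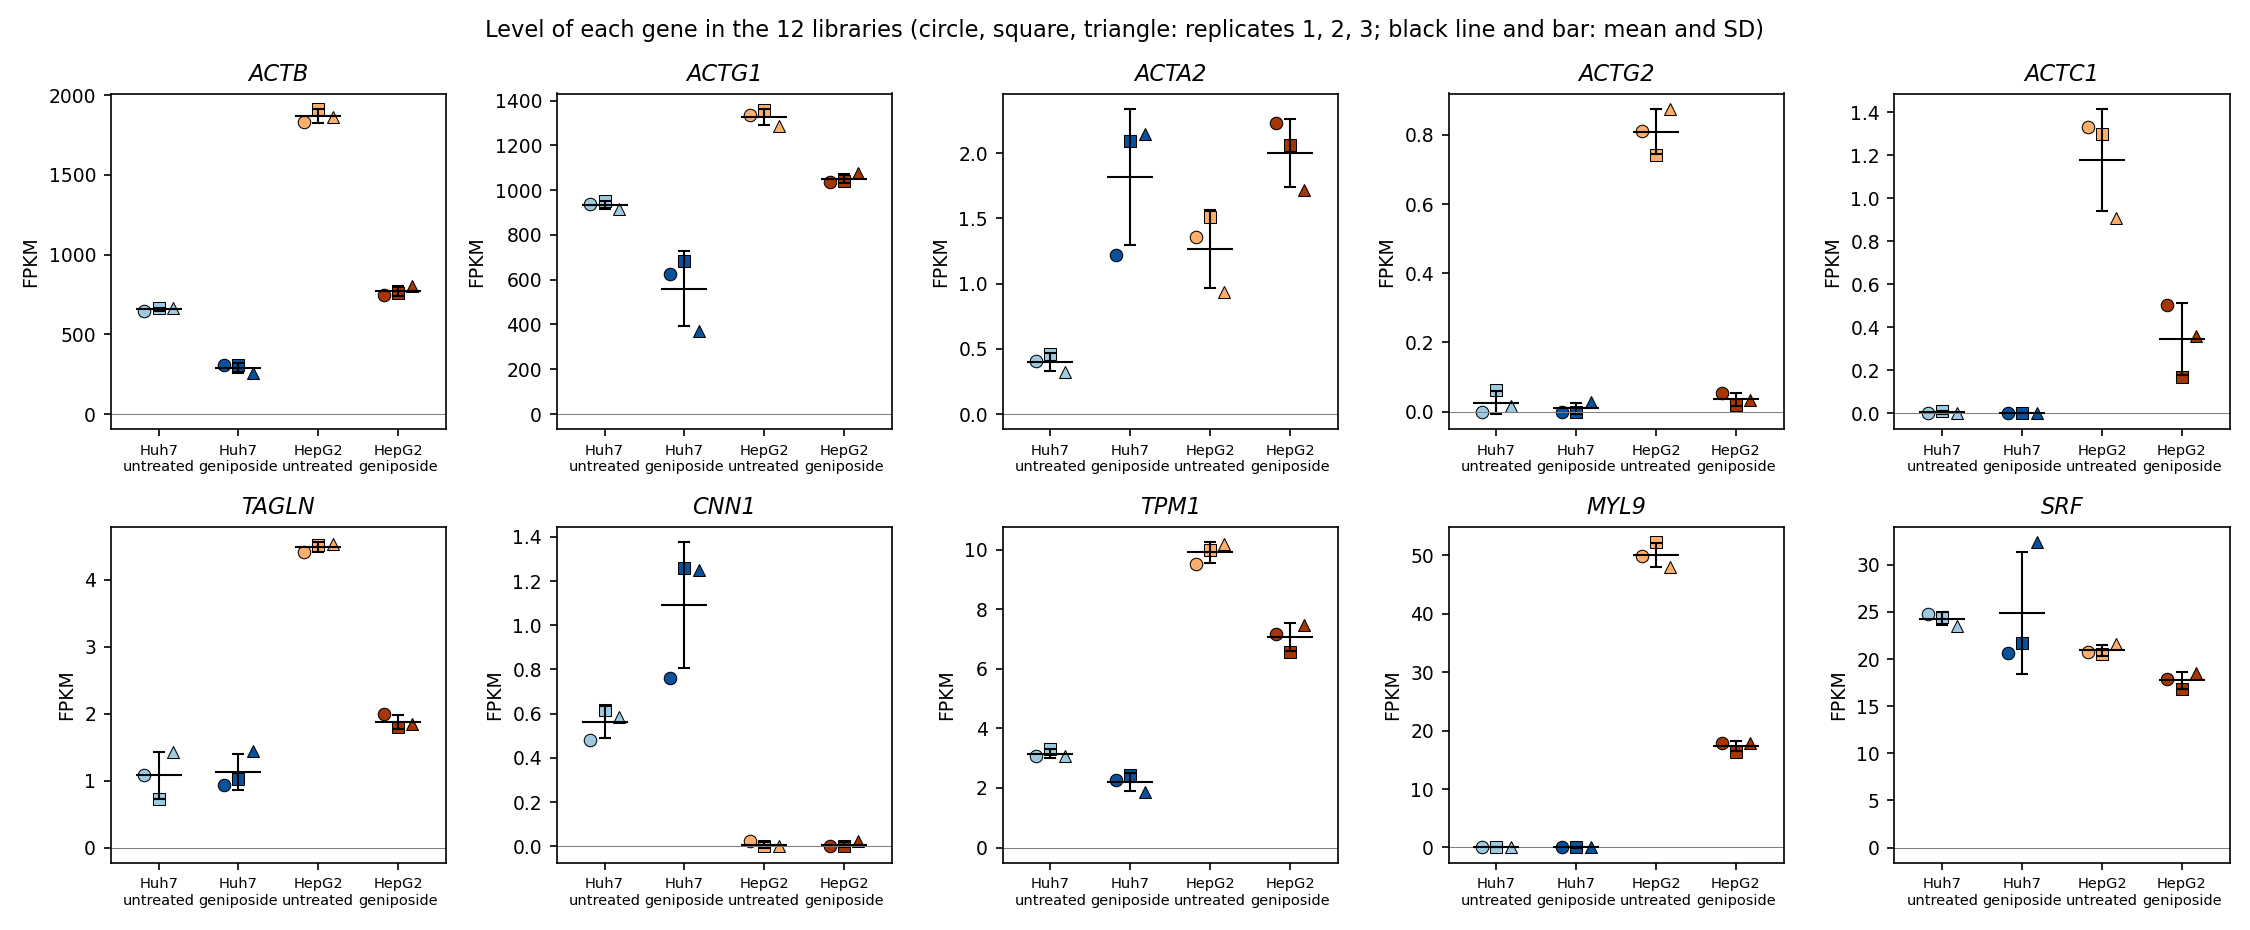
FPKM of each of the 10 genes (vertical axes, linear, each with its own range) in the 12 libraries by group (horizontal axis). Circles, squares and triangles are replicates 1, 2 and 3, and the black line and bar are mean and SD; ACTB is lower in every treated library, MYL9 is near 0 in the Huh7-labelled libraries, and the third treated Huh7-labelled library lies apart for ACTG1 and SRF.

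ACTB (ENSG00000075624, chr7:5527147-5563784, minus strand, hg38), a cytoplasmic actin, fell with geniposide in both lines. It stood at 647, 663 and 664 FPKM in the untreated Huh7-labelled libraries and at 310, 308 and 254 FPKM in the treated ones. In the HepG2-labelled libraries it stood at 1830, 1914 and 1860 FPKM untreated and at 744, 759 and 804 FPKM treated. Every treated library of a line lay below every untreated one. The group means were 658 ± 9.49 and 291 ± 31.7 FPKM in the Huh7-labelled samples, a ratio of 0.442, and 1868 ± 42.3 and 769 ± 31.2 FPKM in the HepG2-labelled samples, a ratio of 0.412. On the log2 scale ACTB fell by 1.18 ± 0.08 and 1.28 ± 0.08, and the difference between both effects was -0.10 ± 0.11. These falls were of almost the same size although the starting level was 2.84 times higher in the HepG2-labelled line. Without the third treated Huh7-labelled library the first value was -1.09.

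ACTG1 (ENSG00000184009, chr17:81509971-81523847, minus strand), the other cytoplasmic actin, was lower with geniposide by a smaller margin. It read 937, 950 and 915 FPKM in untreated and 627, 682 and 369 FPKM in treated Huh7-labelled libraries. The third treated library was far below its group, and without it the log2 difference moved from -0.79 ± 0.18 to -0.51, still called. In the HepG2-labelled libraries ACTG1 read 1336, 1359 and 1287 FPKM untreated and 1038, 1043 and 1076 FPKM treated. The groups did not overlap, but the log2 difference of -0.33 ± 0.18 was not called. It was called at -0.33 once that Huh7-labelled library was left out of the shared fit, and when the HepG2-labelled line was fitted alone. The Huh7-labelled call was lost when that line was fitted alone. The effects in both lines differed by 0.45 ± 0.25, which was not called.

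The order of the cytoplasmic actins changed in the HepG2-labelled libraries. ACTB stood above ACTG1 in every untreated HepG2-labelled library, at a ratio of 1.37, 1.41 and 1.45, and below it in every treated one, at 0.717, 0.728 and 0.747. In the Huh7-labelled libraries ACTG1 was the more abundant in all 6. The ratio of ACTB to ACTG1 there was 0.691, 0.698 and 0.726 untreated and 0.495, 0.451 and 0.69 treated. The first 2 treated libraries lay below the untreated range, and the third was just below it at 0.69 against 0.691. Summed over the 5 actins, FPKM went from 1592 ± 18 to 852 ± 198 in the Huh7-labelled libraries, where the treated ones held 938.5, 991.8 and 625, and from 3199 ± 68.3 to 1824 ± 51.2 in the HepG2-labelled ones. As a share of all FPKM in a library, actin was 0.634% and 0.358% in the Huh7-labelled groups and 1.05% and 0.628% in the HepG2-labelled groups.

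**Figure D2:**
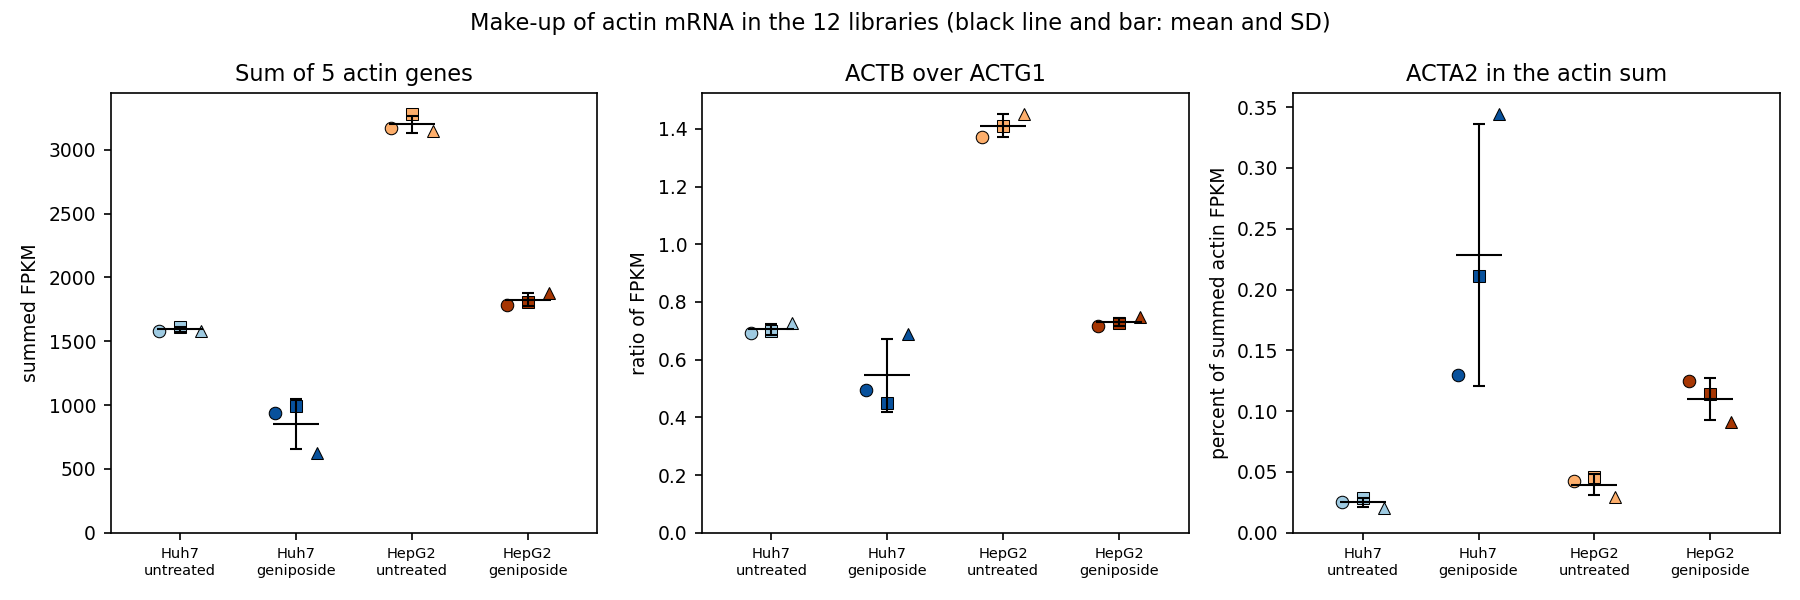
Summed FPKM of ACTB, ACTG1, ACTA2, ACTG2 and ACTC1 (left), the ratio of ACTB to ACTG1 (middle) and ACTA2 as a percent of the sum (right) in the 12 libraries by group, with mean and SD in black. The sum is lower in all treated libraries of a line, the ratio falls from at least 1.37 to at most 0.747 in the HepG2-labelled line, and the share of ACTA2 is higher in all treated libraries.

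The muscle actins were far rarer than the cytoplasmic ones, with no group mean above 2 FPKM, and 1 of them went the other way. ACTA2 (ENSG00000107796, chr10:88935074-88991339, minus strand), smooth muscle alpha-actin, rose with geniposide in both lines. Its values were 0.407, 0.459 and 0.325 FPKM in untreated and 1.22, 2.09 and 2.15 FPKM in treated Huh7-labelled libraries. The lowest treated library was above the highest untreated one, the mean went from 0.397 ± 0.0678 to 1.82 ± 0.518 FPKM (60 and 296 fragments per group), and the ratio of means was 4.59. The log2 difference was 0.998 ± 0.14, and 0.91 without the third treated library. In the HepG2-labelled libraries ACTA2 read 1.36, 1.51 and 0.934 FPKM untreated and 2.23, 2.06 and 1.72 FPKM treated. These groups also stood clear of each other, with a ratio of means of 1.58 and a log2 difference of 0.41 ± 0.14.

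The smaller ACTA2 rise was less stable. The Huh7-labelled call was kept in all 19 alternatives, with log2 differences of 0.91 to 2.22, whereas the HepG2-labelled call was lost in 10 of 19, with differences of 0.30 to 0.68. The effects differed by -0.59 ± 0.20, which was not called. As a share of actin, ACTA2 went from 0.0249% ± 0.00406 to 0.228% ± 0.108 in the Huh7-labelled line (0.13%, 0.211% and 0.344% per treated library) and from 0.0394% ± 0.00866 to 0.11% ± 0.0172 in the HepG2-labelled ones. ACTA2 lies across 3 genes on the opposite strand, and the library protocol in the labels does not mark strand, so reads of overlapping exons cannot be told apart. STAMBPL1, which shares 40080 bases of its locus, was at 0.787 and 0.679 FPKM in the Huh7-labelled groups and at 4.27 FPKM in both HepG2-labelled groups. FAS, the death receptor gene that overlaps the far end by 758 bases, was at 0.964 and 0.668 FPKM and at 2.27 and 2.21 FPKM. The antisense gene ACTA2-AS1 was at or below 0.19 FPKM in every library. These are means over whole genes, and the share of ACTA2 reads that could belong to the overlapping genes was not tested.

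ACTG2 (ENSG00000163017, chr2:73892314-73919865, plus strand), the gamma-actin of gut and bladder muscle, was nearly lost from the treated HepG2-labelled libraries. It stood at 0.811, 0.743 and 0.875 FPKM untreated and at 0.0538, 0.0185 and 0.0335 FPKM treated, which is 137 fragments against 6. Groups were far apart, with a mean 22.9 times lower after treatment. The log2 difference was -0.81 ± 0.04 in the fit without the filter, a scale on which a gene below 1 FPKM cannot fall by more than 1. In the Huh7-labelled libraries ACTG2 had 5 fragments untreated and 2 treated, and no difference was detectable at this depth.

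ACTC1 (ENSG00000159251, chr15:34788095-34795726, minus strand), cardiac alpha-actin, followed the same course in the HepG2-labelled libraries. It read 1.33, 1.3 and 0.906 FPKM untreated and 0.505, 0.169 and 0.361 FPKM treated, with no overlap and a ratio of means of 0.293. The log2 difference was -0.70 ± 0.10. In the Huh7-labelled libraries it had 1 fragment untreated and 0 treated, where 3 fragments over the group would be 0.0119 FPKM. So in the HepG2-labelled line the smooth muscle actins moved in opposite directions, ACTA2 up and ACTG2 down. The effects of geniposide differed between lines by -0.78 for ACTG2 and by -0.69 for ACTC1, but in the untreated Huh7-labelled line ACTG2 had only 5 fragments and ACTC1 only 1.

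Among the actin-binding proteins, TAGLN (ENSG00000149591, chr11:117199321-117204782, plus strand), which encodes transgelin, an early marker of smooth muscle, differed between lines. Its levels in the Huh7-labelled libraries were 1.08, 0.728 and 1.42 FPKM untreated and 0.93, 1.02 and 1.44 FPKM treated. Those groups overlapped, and the log2 difference was 0.04 ± 0.12, and -0.06 without the third treated library, called in neither case. In the HepG2-labelled libraries TAGLN fell from 4.41, 4.52 and 4.54 FPKM to 1.99, 1.8 and 1.84 FPKM, a ratio of means of 0.418. There the log2 difference was -0.93 ± 0.12 and the effects in both lines differed by -0.98 ± 0.17. PCSK7, a protease gene that overlaps the end of TAGLN by 446 bases on the other strand, was at 2.59 FPKM untreated and 1.64 FPKM treated in the HepG2-labelled groups, and the share of TAGLN reads that could belong to it was not tested.

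MYL9 (ENSG00000101335, chr20:36541484-36551447, plus strand) encodes the regulatory light chain of smooth muscle myosin, whose phosphorylation starts contraction. It was the gene with the widest gap between lines. The untreated HepG2-labelled libraries held 49.9, 52.2 and 48 FPKM, and the treated ones 17.9, 16.3 and 17.8 FPKM. Untreated and treated values were well apart, the ratio of means was 0.346, and the log2 difference was -1.48 ± 0.05. The Huh7-labelled libraries had 0 MYL9 fragments untreated and 1 treated. The level in untreated HepG2-labelled libraries was at least 2386-fold higher than in untreated Huh7-labelled ones, taking 3 fragments over the group as the floor. The effects in both lines differed by -1.49 ± 0.07 on the log2 scale, again with a starting level of 0 in the Huh7-labelled line. The antisense gene DLGAP4-AS1, which spans MYL9, was at 0.0095 and 0.0175 FPKM in the untreated and treated HepG2-labelled groups. In the Huh7-labelled groups it was higher, at 0.299 and 0.523 FPKM.

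CNN1 (ENSG00000130176, chr19:11538717-11550323, plus strand), calponin, a late marker of contractile smooth muscle, was present in the opposite line. It stood at 0.48, 0.617 and 0.586 FPKM in untreated and at 0.761, 1.26 and 1.25 FPKM in treated Huh7-labelled libraries. All treated values were above the untreated ones, with 82 and 172 fragments per group and a ratio of means of 1.95. The log2 difference of 0.41 ± 0.09 was called in the fit without the filter, and the call was lost in 5 of 18 alternatives, among them the 0.1 FPKM pseudocount and voom. Without the third treated library it was 0.36 and still called. Each HepG2-labelled group held 1 CNN1 fragment. CNN1 in the untreated Huh7-labelled libraries was 71.9 times the level in the untreated HepG2-labelled ones, with a counting interval (95%) of 12.5 to 2873.

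TPM1 (ENSG00000140416, chr15:63042632-63071915, plus strand), a tropomyosin that lies along the actin filament and gates myosin, fell by a similar amount in both lines. It went from 3.06, 3.32 and 3.08 FPKM to 2.27, 2.44 and 1.86 FPKM in the Huh7-labelled libraries. In the HepG2-labelled ones it went from 9.53, 9.99 and 10.2 FPKM to 7.18, 6.56 and 7.46 FPKM. Neither pair of groups overlapped, and the ratios of means were 0.695 and 0.714. The log2 differences were -0.38 ± 0.07 and -0.44 ± 0.07, and -0.31 in the Huh7-labelled line without the third treated library.

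SRF (ENSG00000112658, chr6:43171299-43181507, plus strand), the factor itself, was called in neither line. It read 24.8, 24.5 and 23.5 FPKM in untreated and 20.6, 21.7 and 32.4 FPKM in treated Huh7-labelled libraries. The third treated library was the highest of all 12 and the other treated ones were below every untreated one. The log2 difference was 0.01 ± 0.13 with that library and -0.19 without it, and the second value was called. In the HepG2-labelled libraries SRF read 20.7, 20.5 and 21.6 FPKM untreated and 17.9, 16.8 and 18.5 FPKM treated. These values did not overlap, with a ratio of means of 0.847 and a log2 difference of -0.23 ± 0.13. That difference was called when the HepG2-labelled line was fitted alone or when the third treated Huh7-labelled library was left out, so the calls for SRF, and its direction in the Huh7-labelled line, depended on 1 library.

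**Figure D3:**
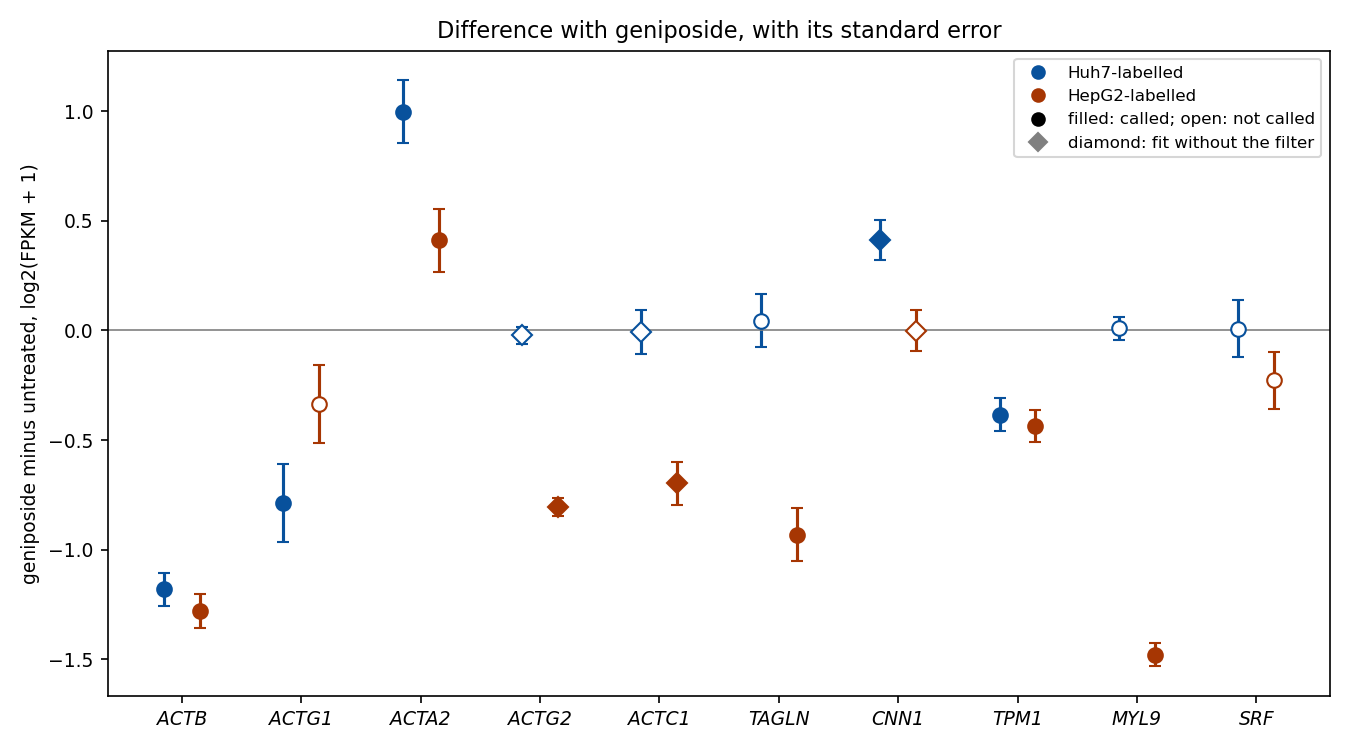
Difference of log2(FPKM + 1), geniposide minus untreated (vertical axis), with its standard error, for each of the 10 genes in the Huh7-labelled (blue) and HepG2-labelled (orange-brown) libraries. Filled symbols were called and open ones were not, and diamonds come from the fit without the filter; ACTB and TPM1 lie at similar heights in both lines, while TAGLN and MYL9 lie near 0 in one line and at -0.93 and -1.48 in the other.

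Before treatment, 8 of the 10 genes were higher in the HepG2-labelled than in the Huh7-labelled libraries. The groups did not overlap for any of the 10, the 7 in the filtered fit among them. Among all tested genes 80.2% showed no overlap between the untreated lines, 40.1% in each direction. Of the 7 in the filtered fit 6 were called higher in the HepG2-labelled line, all but SRF, where 71.8% of tested genes were called, 36.1% higher and 35.8% lower. The exceptions to the direction were CNN1 and SRF. The ratio of HepG2-labelled to Huh7-labelled means was 2.84 for ACTB, 1.42 for ACTG1, 3.19 for ACTA2, 4.18 for TAGLN and 3.14 for TPM1. It was 31.1 for ACTG2 and 0.863 for SRF, and for ACTC1 the ratio was 276 with a counting interval of 49.1 to 10951. These ratios carry the offset of the library totals given above, and several of the differences were sensitive to scaling. The ACTG1 difference of 0.51 turned to -0.15 with quantile normalization and was not called in 8 of 18 alternatives. The ACTB difference shrank to 1.23 with TPM scaling, 1.22 with voom and 0.98 with quantile normalization, and stayed called. SRF moved further down with these settings, to -0.49, -0.50 and -0.48, and was called lower in each. The TPM1 difference shrank slightly, while those of ACTA2, TAGLN, ACTG2 and ACTC1 grew under each of these settings. They also grew without any rescaling when 0.1 FPKM was added in place of 1. ACTA2 then went from 0.69 to 1.44 and TAGLN from 1.42 to 2.01. Growth in these low genes is therefore no measure of scaling, and the part of scaling in it was not tested. Within each group ACTB and ACTG1 were far above all others, then MYL9 in the untreated HepG2-labelled libraries, SRF in the Huh7-labelled ones, and both together with overlapping values in the treated HepG2-labelled ones. In the Huh7-labelled libraries TPM1 came after SRF, and TAGLN, ACTA2 and CNN1 overlapped near 1 FPKM after treatment.

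Over the 12 libraries, with each line centred on its own mean, ACTB and TPM1 had a Pearson r of 0.969, TAGLN and MYL9 of 0.933, and ACTB and ACTA2 of -0.858. These are descriptions over libraries that share 2 treatments, and the r of these pairs follows largely from the group differences above. SRF had r of 0.617 with TAGLN, 0.486 with MYL9, 0.256 with ACTB, 0.165 with TPM1, -0.033 with ACTA2 and -0.298 with ACTG1. The values for SRF and ACTG1, here and below, include the third treated Huh7-labelled library, which lay apart for both genes. Among 12149 other protein-coding genes, those most like ACTB were OPA1 (0.995), HNRNPM (0.994) and PMPCA (0.994). Those most like ACTG1 were TBCD (0.997), CCDC85B (0.992) and PGAM1 (0.991). ACTA2 was most like TOM1 (0.982), KLHDC2 (0.976) and PRKAB2 (0.971). MYL9 was most like CHRND, ANXA8L1 and KRT7 (0.999 each), which like MYL9 were near 0 in the Huh7-labelled libraries, with KRT7 at 279 FPKM untreated and 72.9 FPKM treated in the HepG2-labelled groups. The genes most like TAGLN included C12orf4 (0.981) and MRPL2 (0.971), those most like TPM1 included GCSH (0.986) and HSD17B4 (0.985), and SRF was most like COPG1 (0.981), SBDS (0.980) and ZNF778 (0.979).

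Around these 10 genes, lists of their pathway were counted in the same fit. Some genes stand in several lists, among them FLNA, ACTN1, DSTN, TPM4, CSRP1, CSRP2 and JUNB, so the list counts are not separate observations. Their counts stand beside a background of 34.5% of all tested genes called in the Huh7-labelled line (16.4% higher, 18.1% lower) and 42.5% in the HepG2-labelled line (21.0% higher, 21.5% lower). Shares near it, as for the other smooth muscle genes, the SRF partners and the nucleators in the Huh7-labelled line, are no result about a list. Of 17 tested other genes of the smooth muscle apparatus, 2 rose and 5 fell in the Huh7-labelled libraries and 2 rose and 6 fell in the HepG2-labelled ones, with median log2 differences of -0.18 and -0.06 (0.00 over all genes in both). Without the third treated library the Huh7-labelled counts were 3 and 7. TPM3, another tropomyosin, fell by 0.54 ± 0.06 and by 1.01 ± 0.06 (limma adjusted p = 0.000134 and 1.09e-06). TAGLN2, the widely expressed relative of TAGLN, fell by 0.44 ± 0.07 and by 0.62 ± 0.07 (adjusted p = 0.000856 and 5.7e-05). LMOD1, a smooth muscle nucleator of actin, rose by 0.60 ± 0.10 in the Huh7-labelled line (adjusted p = 0.00121), from 0.87 to 1.83 FPKM.

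Of 9 tested SRF partners, 2 rose in the Huh7-labelled line and 4 rose and 3 fell in the HepG2-labelled line. None fell in the Huh7-labelled line by limma, with 0 also at an unadjusted p under 0.05 and by voom, and without the third treated library 4 rose. MRTFA, the actin-sensing partner, rose by 0.36 ± 0.07 in the Huh7-labelled line (adjusted p = 0.0026). Among 23 tested cytoskeletal targets of SRF and MRTF, 2 rose and 10 fell, and 4 rose and 10 fell, with medians of -0.15 and -0.24. Without the third treated library 3 rose and 11 fell of 22 tested in the Huh7-labelled line. Over all tested genes 16.4% were called higher and 18.1% lower in the Huh7-labelled line, and 21.0% and 21.5% in the HepG2-labelled line. FLNA, the filamin cross-linker, fell by 0.60 ± 0.13 in the Huh7-labelled line (adjusted p = 0.00373), from 147 to 97.3 FPKM, and by 0.44 without the third treated library. In the HepG2-labelled line it fell by 0.64 ± 0.13 (limma adjusted p = 0.00179). LIMA1 fell by 1.10 ± 0.05 in the HepG2-labelled line (adjusted p = 8.91e-08), while ITGA5, an integrin, rose there by 0.99 ± 0.06 (adjusted p = 7.59e-07). Both moved the same way in the Huh7-labelled line, LIMA1 by -0.22 ± 0.05 and ITGA5 by 0.59 ± 0.06 (limma adjusted p = 0.004 and 4.56e-05). Without the third treated library these values were -0.23 and 0.56. The LIMA1 call there was lost with voom. Of the 6 tested immediate early targets, 2 rose and 2 fell in the Huh7-labelled line, where the calls of NR4A1 and MCL1 were lost in 6 and 9 of the alternatives, and 5 rose in the HepG2-labelled line. In the Huh7-labelled line 3 rose and 2 fell without the third treated library. EGR1 rose in the HepG2-labelled line by 1.43 ± 0.09 (adjusted p = 1.22e-06), from 1.64 to 6.12 FPKM. No immediate early gene fell there by limma, at an unadjusted p under 0.05 or by voom.

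All 15 genes of the actin folding list, 8 subunits of the chaperonin CCT, 6 of prefoldin and the phosducin-like PDCL3, were tested, and 12 fell in the Huh7-labelled line and 11 in the HepG2-labelled line, with medians of -0.43 and -0.64. All 8 CCT subunits fell in both lines. Among the prefoldin genes, VBP1 fell in both lines (-0.49 and -0.43). PFDN4 (-0.33) and PFDN5 (-0.33) fell in the Huh7-labelled line only, and PFDN6 (-0.59) in the HepG2-labelled line only. PFDN1 (-0.23 and -0.39) and PFDN2 (0.07 and -0.31) were called in neither. Of the 15 genes, 14 fell in the Huh7-labelled line without the third treated library. None rose by limma in either line, at an unadjusted p under 0.05 or by voom. CCT6A fell by 0.96 ± 0.06 and by 0.92 ± 0.06 (limma adjusted p = 3.13e-06 and 1.15e-06). Of 21 genes of monomer binding, capping and severing, 14 fell in each line, and 3 rose in the HepG2-labelled one (GSN, TMOD1 and SSH1). Without the third treated library 15 fell and 2 rose in the Huh7-labelled line. GSN, TMOD1, SSH1 and the prefoldin genes were named after their values were seen. In the Huh7-labelled line none rose by limma, against 1 at an unadjusted p under 0.05 and 2 by voom. CFL1, the severing protein cofilin, fell by 0.86 ± 0.05 in the HepG2-labelled line (adjusted p = 7.53e-07), from 128 to 69.9 FPKM. In the Huh7-labelled line it fell by 0.32 ± 0.05 (limma adjusted p = 0.000769).

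Of 20 nucleators, 1 rose and 6 fell, and 3 rose and 8 fell (2 and 8 in the Huh7-labelled line without the third treated library). Of 15 cross-linkers, 3 rose and 8 fell in the Huh7-labelled line (4 and 8 without that library) and 11 fell in the HepG2-labelled line, where none rose by limma, at an unadjusted p under 0.05 or by voom. Of 19 tested TGF-beta pathway genes, 4 rose in the Huh7-labelled line (6 without that library) and 7 rose and 7 fell in the HepG2-labelled line. None fell in the Huh7-labelled line by limma, at an unadjusted p under 0.05 or by voom. FN1, fibronectin, rose by 0.65 ± 0.09 and by 0.86 ± 0.09 (adjusted p = 0.000289 and 2.46e-05). These lists were chosen with results of these data known, and their counts are a description.

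**Figure D4:**
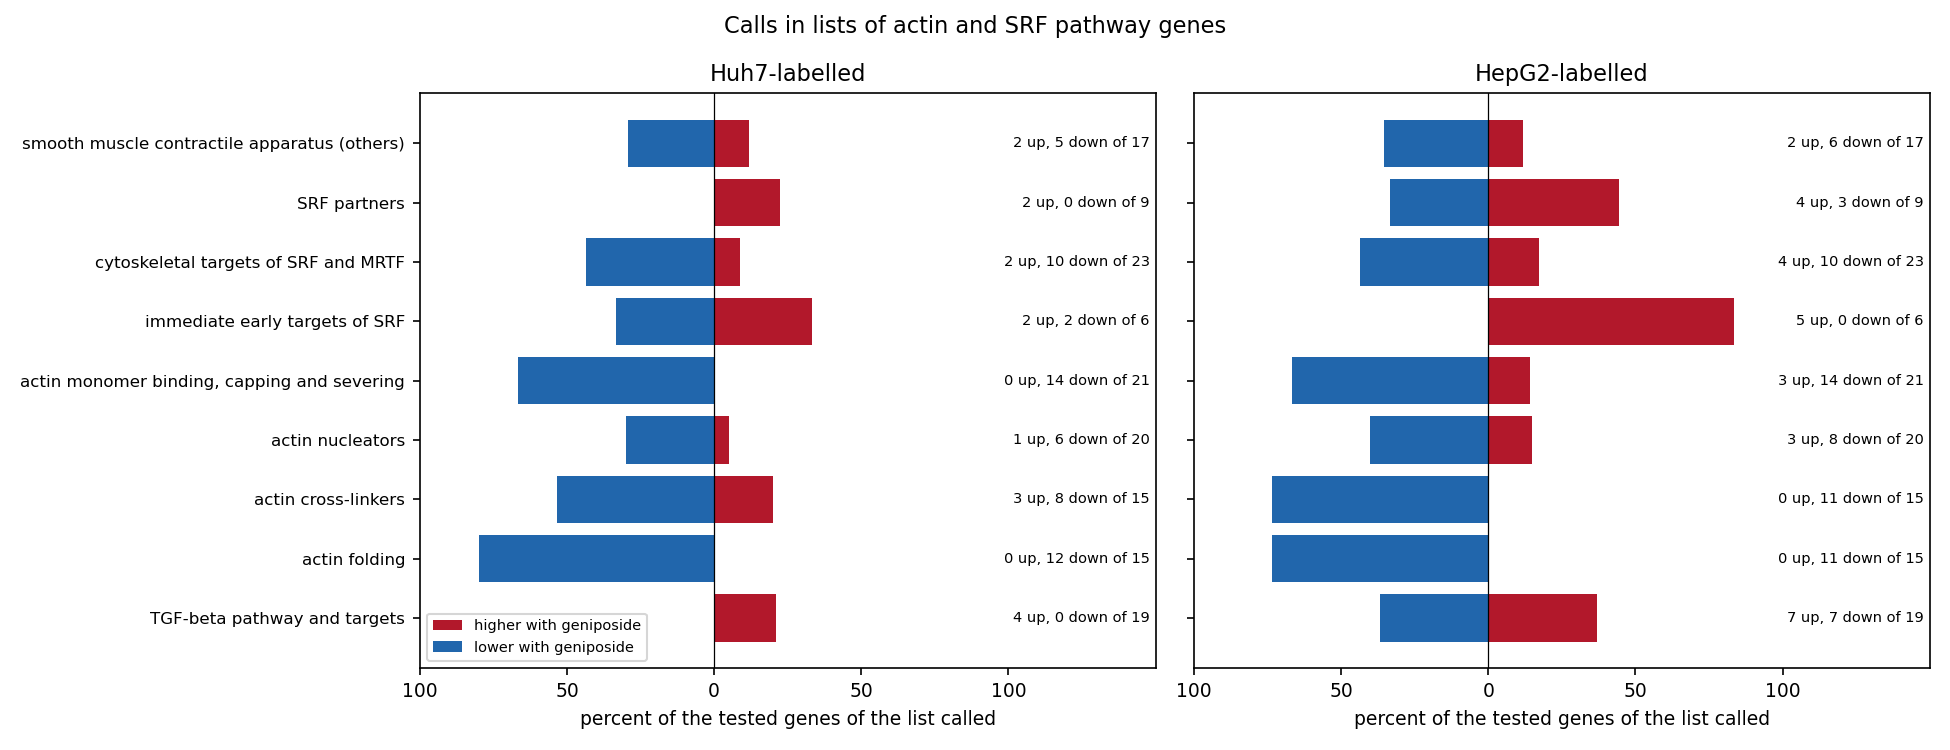
Percent of the tested genes of each pathway list that were called higher (red, to the right) or lower (blue, to the left) with geniposide, in the Huh7-labelled (left panel) and HepG2-labelled (right panel) libraries, with the counts printed at the right. Actin folding has 12 and 11 of 15 genes lower and none higher, and immediate early targets have 5 of 6 higher in the HepG2-labelled line.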

How the data were processed

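Poly(A) RNA was sequenced in 12 libraries. Build hg38, CASAVA and fastp are named in the submitters' processing notes, and the sources used here state no version, aligner or counting program. The authors deposited FPKM per gene for 58735 genes, matched to samples by column name. FPKM times gene length gave whole fragments for 100% of values (within 0.05 fragments), 15056655 to 17211659 per library. Intervals and floors (3 fragments) cover counting error only, since reads without molecular identifiers are not independent molecules.

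The fit was made on log2(FPKM + 1) in limma 3.58.1 (R 4.3.3), with 4 group means over 12 libraries, 8 residual degrees of freedom, a variance trend and p-values (two-sided) adjusted by Benjamini and Hochberg's method, with a threshold of 0.05, over genes with at least 1 FPKM in 3 libraries. The scripts were tested on simulated data. The 10 genes and the lists were chosen with earlier results of these data known. Named genes are the 10, up to 4 called genes with the smallest p per list and line, the 3 protein-coding genes most like each of the 7 that passed the filter, and overlapping genes and actin copies. Results for some of these genes and for 1 list are not reported here. Alternatives covered pseudocount, filter, scaling, voom, each line alone, a replicate block and each library left out.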

Additional observations from a re-analysis of the deposited data

Results flagged for a closer look

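For some genes the effect of geniposide differed between lines by a test of the difference itself (limma, adjusted p under 0.05 over 15518 genes), given here as the HepG2-labelled minus the Huh7-labelled log2 difference. Among the 10 genes this was -0.98 for TAGLN and -1.49 for MYL9, and -0.78 for ACTG2 and -0.69 for ACTC1 in the fit without the filter. These 4 are a description, since the genes were chosen with these contrasts known, and MYL9, ACTG2 and ACTC1 were near 0 in the untreated Huh7-labelled libraries. Among all tested genes 27.8% had such a difference.

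Among smooth muscle and SRF partner genes the difference was -0.48 for TPM3, -0.66 for LMOD1, 0.40 for CSRP2, -0.58 for CSRP1, -0.58 for MRTFA, 0.38 for ELK4 and -0.56 for FHL2. MRTFA was higher with geniposide in the Huh7-labelled line (0.36) and lower in the other (-0.22). Among SRF targets it was 0.39 for ITGA5, -0.88 for LIMA1, -1.08 for CTGF and -0.54 for KRT17. Among immediate early genes it was 1.31 for EGR1, 0.88 for JUNB, 0.41 for IER2 and 0.35 for MCL1. JUNB was lower in the Huh7-labelled line (-0.41) and higher in the other (0.47). KRT17 and CSRP1 were near 0 in the untreated Huh7-labelled libraries (0.057 and 0.273 FPKM). LMOD1 was near 0 in the untreated HepG2-labelled ones (0.125 FPKM). From such a level a fall could hardly show and any change is understated, so these differences do not compare like responses. EGR1 and CTGF stood below 1 FPKM in the untreated Huh7-labelled libraries (0.905 and 0.885 FPKM), and their changes there are understated as well.

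In the actin machinery the difference was 0.47 for TWF1, -0.32 for WDR1, -0.68 for CAP2, -0.54 for CFL1, 0.34 for ARPC4 and -0.43 for ACTR3. It was 0.53 for PLS3, 0.25 for EZR, -0.23 for MSN and -0.29 for RDX among cross-linkers, and -0.52 for CCT5 and -0.44 for CCT2 in the chaperonin. In the TGF-beta list it was -0.57 for COL1A1 and -1.50 for ID3. Adjusted p among these list genes ran from 1.45e-05 (LIMA1) to 0.0434 (MCL1).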

How the results depend on the processing

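Of 556 member differences under the alternatives, 487 stayed within the spread between replicates. All 360 that came from leaving out 1 library stayed within it. These say little, because that spread includes the library left out. Of the 196 from the other settings 127 stayed, 68 moved beyond the spread and 1 reversed: ACTG1 between untreated lines, -0.15 with quantile normalization. The count of called genes in the Huh7-labelled line was 3266 with each line fitted alone (5357 in the shared fit). The count between untreated lines was 7220 with a filter of 5 FPKM, which tests fewer genes (11146). Leaving out each library in turn gave 4098 to 7049 called genes in the Huh7-labelled line, 5406 to 8330 in the HepG2-labelled line, 3333 to 6098 for the difference and 10398 to 11995 between untreated lines, the highest each time without the third treated Huh7-labelled library. TPM scaling shifted the median of all genes between untreated lines to -0.27 and voom to -0.30, and with them the share of higher calls from 50.2% to 36.6% and 36.4%. In the Huh7-labelled line that share went from 47.5% to 61.6% and 60.9%, and for the difference from 50.8% to 40.1% with voom. Same-numbered libraries showed no shared deviation (correlations of -0.0615 to 0.0201). With 3 libraries per group this cannot exclude that the numbers pair the samples. With a replicate block 4520 genes were called in the Huh7-labelled line, 5952 in the HepG2-labelled line and 3160 for the difference. Without the block these counts were 5357, 6602 and 4317.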
